A study of Mus musculus with 5 samples.

Results

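Among droplet-based single-cell transcriptomes of hepatocytes isolated from mouse liver, a small set of barcodes carried the transcripts of liver sinusoidal endothelial cells. A barcode was counted as sinusoidal endothelial when it had at least 1000 unique molecular identifiers (UMIs, each marking 1 captured RNA molecule), 500 or more genes and no more than 30% mitochondrial UMIs, when at least 4 of the 7 genes Stab2, Clec4g, Kdr, Ptprb, Fcgr2b, Egfl7 and Dnase1l3 were detected in it, and when these 7 genes together made up at least 0.5% of its UMIs. This rule found 307 of the 50000 deposited barcodes. The fed library held 221 of them, and the libraries taken 4, 8, 16 and 24 h after food removal held 6, 16, 47 and 17. Because the cells were selected on the UMI counts of these endothelial transcripts, every comparison of these cells with hepatocytes is given as a description, without a test.

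The mice were wild-type (WT) C57BL/6J males on a Normal Chow diet (lab diet #5053). They were trained for 3 days on 16 h of fasting and 8 h of feeding, and were then given chow and water with 20% sucrose for 4 h, after which the fed (0 h) sample was taken. With food and sucrose withdrawn, samples followed at 4, 8, 16 and 24 h, so that the clock hours were 13, 17, 21, 5 and 13, and only the fed and 24 h samples share an hour of day. Each time point was 1 library from isolated hepatocytes, made with 10x Genomics 3' v3 chemistry, and no source used here says how many animals it came from. There are therefore no replicates, differences between times describe these libraries, intervals cover counting error only, and fasting time and clock hour cannot be told apart except at 24 h.

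Sinusoidal endothelial cells line the capillaries of the liver lobule. They lack a continuous basement membrane and carry open pores, the fenestrae, through which plasma reaches the hepatocytes behind them. They clear waste molecules from the blood through scavenger receptors and lectins such as the stabilins and the mannose receptor, and they send signals to hepatocytes, among them BMP ligands that set hepcidin production and, near the central vein, Wnt ligands that maintain pericentral metabolism. A hepatocyte isolation is meant to leave them behind, so the cells described here are those that passed through it.

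The 7 marker genes that define the cells lie on 6 chromosomes. In GENCODE M21 (GRCm38), Stab2, which encodes the hyaluronan receptor stabilin-2, spans chr10:86841198-87008025 on the minus strand. Clec4g, a C-type lectin of sinusoidal endothelium, lies at chr8:3707064-3720651 on the minus strand, and Kdr, the main VEGF receptor of endothelial cells, at chr5:75932827-75978458 on the minus strand. Ptprb, a vascular receptor tyrosine phosphatase, lies at chr10:116275523-116389535 on the plus strand, and Fcgr2b, an inhibitory Fc gamma receptor, at chr1:170958617-170976547 on the minus strand. The secreted endothelial factor gene Egfl7 is found at chr2:26580014-26593120 on the plus strand and the secreted nuclease gene Dnase1l3 at chr14:7964533-7994573 on the minus strand.

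Since these genes are high together in 1 cell type, the 250 bases before the annotated starts of endothelial marker genes were read for the letters CAGGAA, or TTCCTG on the other strand, a core sequence bound by ETS family factors. Of the 19 rule and general endothelial marker genes, 12 were found in the RefSeq promoter table (GRCm38.p6), with 16 starts, and 9 of the 16 windows (56.25%) held the letters, against 8446 of the 32851 windows of all 27025 genes (25.7%). A match is a description of the letters and not evidence of binding. Windows are printed for Clec4g, a rule marker with 1 match, for Tek, an angiopoietin receptor gene with 2 matches, and for Eng, a TGF-beta co-receptor gene with none, in order to show how they differ. All read 5' to 3' on the gene's strand with the matches in capitals: Clec4g from chr8:3720652-3720901 (minus), with its match starting 216 bases before the start site, Tek from chr4:94739039-94739288 (plus), with matches 89 and 59 bases before it, and Eng from chr2:32646345-32646594 (plus).
Clec4g: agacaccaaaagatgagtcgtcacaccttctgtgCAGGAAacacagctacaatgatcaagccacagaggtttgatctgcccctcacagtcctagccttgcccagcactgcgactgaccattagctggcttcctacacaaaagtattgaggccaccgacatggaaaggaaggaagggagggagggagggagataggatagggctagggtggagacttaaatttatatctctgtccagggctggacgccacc
Tek: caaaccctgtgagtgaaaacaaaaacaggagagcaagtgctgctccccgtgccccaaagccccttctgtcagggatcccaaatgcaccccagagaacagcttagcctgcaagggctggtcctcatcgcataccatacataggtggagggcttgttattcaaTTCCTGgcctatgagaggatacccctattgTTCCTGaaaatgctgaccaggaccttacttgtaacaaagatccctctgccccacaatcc
Eng: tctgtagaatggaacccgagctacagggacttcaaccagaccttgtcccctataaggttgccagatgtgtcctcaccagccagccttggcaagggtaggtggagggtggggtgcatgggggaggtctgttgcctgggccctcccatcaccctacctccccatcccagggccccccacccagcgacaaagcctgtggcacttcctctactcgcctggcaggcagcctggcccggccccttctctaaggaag

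Total UMIs per library ranged from 40002260 to 68330252, with 10000 deposited barcodes each. Between 3292 and 9998 barcodes per library met the UMI, gene and mitochondrial limits, and the smallest deposited barcode had between 167 and 2081 UMIs, so the libraries were not open to small cells to the same extent. Hepatocytes were called by at least 5 of 7 hepatocyte markers and at least 2% mitochondrial UMIs, with few endothelial, erythroid or Kupffer UMIs. They numbered 7615, 4558, 2705, 9059 and 4550 in time order. A further 1640, 4788, 671, 193 and 4399 barcodes had under 1% mitochondrial UMIs and fewer than 4 of the 7 endothelial markers. Their median depth was below that of hepatocytes in every library, at 1661, 1851, 1393, 1145 and 2662 UMIs, but single barcodes reached 65800 UMIs at 24 h, and they served as a second reference for hepatocyte RNA. Of the barcode sequences, 258 occurred in 2 libraries and 1 in 3. Of the endothelial barcodes, 2 shared a sequence with a non-endothelial barcode of another library and 0 with each other. No doublets were called here, so an endothelial barcode may hold a second cell.

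The endothelial share of the barcodes that met the limits was 2.21% in the fed library (exact Clopper-Pearson 95% interval 1.93 to 2.52). The 4 h library had 0.0605% (0.0222 to 0.132) and the 8 h library 0.486% (0.278 to 0.788). At 16 h the share was 0.502% (0.369 to 0.667) and at 24 h 0.170% (0.0993 to 0.273). The fed library was the highest and the 4 h library the lowest, and the intervals overlapped between 8 and 16 h and between 4 and 24 h. These shares depend on what each preparation and barcode selection kept: the lowest deposited UMI count was 1385, 1227, 167, 820 and 2081 in time order, and a further 0, 0, 10, 38 and 0 barcodes under 1000 UMIs met both marker criteria. How far cell survival, isolation or fasting set the shares was not tested.

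Endothelial barcodes were small next to the hepatocytes of their own library. Their median UMI count was 1757, 3928, 1680, 1200 and 2987 in time order, against hepatocyte medians of 5552, 12150, 15060, 4409 and 9040. Mitochondrial UMIs made up a median of 2.23%, 4.19%, 2.05%, 2.69% and 2.21% of theirs, against 12.0%, 19.2%, 9.80%, 13.8% and 16.3% in hepatocytes, which are rich in mitochondria. Part of this gap is set by the 2% minimum in the hepatocyte rule. In the fed library the summed share of the 7 markers ran from 0.510% to 1.46% per endothelial barcode with a median of 0.861%, and the 5 library medians lay between 0.861% and 1.58%.

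In the fed and 24 h libraries barcodes lay close on both sides of the share threshold, while the 4 and 8 h libraries had wider gaps around it. In the fed library 272 barcodes within the limits had at least 4 markers, of which 221 also met the share. The lowest share inside the threshold was 0.510%, 0.620%, 0.648%, 0.610% and 0.507% in time order, and the highest share outside it among barcodes with 4 or more markers was 0.499%, 0.122%, 0.350%, 0.466% and 0.448%. Barcodes that met the share with only 3 markers numbered 3, 1, 0, 2 and 0. All 7 markers were detected in 56 of the 221 fed barcodes and in 5, 8, 9 and 10 of the others.

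**Figure D1:**
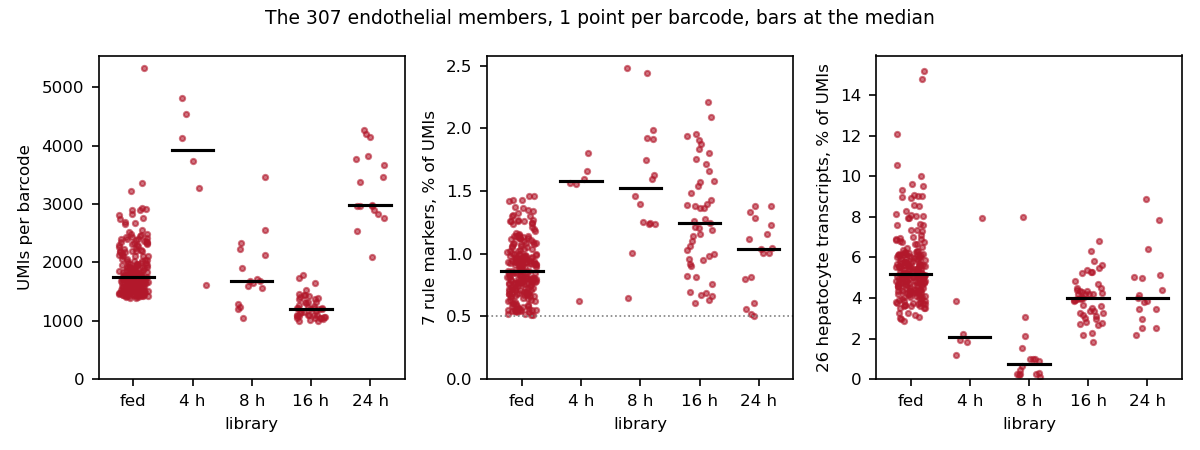
Each point is 1 endothelial barcode, by library on the horizontal axis, with its UMI count (left), the percent of UMIs from the 7 rule genes (middle, dotted line at the 0.5% threshold) and the percent from 26 hepatocyte transcripts (right); bars are medians. The fed library holds 221 of the 307 points, and the hepatocyte transcript median is 5.21% there and 0.752% at 8 h.

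Levels are given as CPM, the UMIs of a gene per 1000000 nuclear-encoded UMIs, summed over the endothelial barcodes of a library, which leaves 405785, 21234, 28633, 56375 and 54403 UMIs in time order. The 7 rule genes chose the cells, and their levels only describe them. Stab2 stood at 589, 706, 943, 1011 and 496 CPM in the fed, 4, 8, 16 and 24 h libraries. Clec4g reached 1461, 2261, 2689, 1756 and 1029 CPM. Ptprb was at 2211, 3626, 4889, 3565 and 2794 CPM.

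Receptors made up much of the rest of the rule. Kdr was at 1203, 3250, 1711, 2146 and 1820 CPM, and Fcgr2b at 1461, 3155, 2130, 2164 and 1599 CPM. The secreted products Dnase1l3 (1516, 2308, 2445, 1863 and 1434 CPM) and Egfl7 (663, 895, 1537, 550 and 772 CPM) completed it. In hepatocytes none of the 7 exceeded 2.81 CPM in any library (Fcgr2b, fed), and the 7 together summed to 12.5, 4.44, 5.33, 7.69 and 5.57 CPM, against 9103, 16200, 16340, 13060 and 9944 CPM in the endothelial barcodes.

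Endothelial markers outside the rule were high in the same barcodes. All 12 general endothelial markers (Pecam1, Cdh5, Tie1, Tek, Eng, Esam, Emcn, Erg, Sox18, Robo4, Plvap and Cldn5) were at least 2-fold higher than in hepatocytes of the fed library, with a median log2 ratio of 9.18, and they summed to 3366 CPM against 6.08. Of all 4276 genes counted in that comparison, 36.2% were at least 2-fold higher, with a median of 0.58, and markers this low in hepatocytes could be counted only where endothelial barcodes had them. All 10 markers of the sinusoidal type were also at least 2-fold higher, with a median of 9.23. Among these Ctsl, a lysosomal protease that hepatocytes also express, was the lowest at 1.28, and it alone fell under 2-fold (0.50) with TMM scaling, which rests on the bulk of shared genes. Gata4, the transcription factor that sets the sinusoidal over the continuous capillary type, was at 160, 283, 419, 248 and 165 CPM. Maf, a transcription factor gene expressed in sinusoidal endothelium, was at 2691, 3344, 2235, 3796 and 2151 CPM and was detected in 212 of the 221 fed barcodes, against 54.4 CPM in fed hepatocytes.

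Markers of other vessels were also found. The 7 listed (Vwf, Sox17, Gja5, Ly6a, Cd34, Vcam1 and Selp) summed to 259, 330, 908, 231 and 478 CPM. In the fed library 3 had enough UMIs, and all 3 were at least 2-fold higher than in hepatocytes, as were 36.2% of all genes counted, with a median log2 ratio of 8.00 for the 3. These 3 were also low in hepatocytes and could be counted only through the endothelial side. Vwf, made by endothelium of larger vessels, was at 2.46 CPM in the fed library from 1 UMI and at 105 CPM at 8 h from 3 UMIs in 2 cells, and the other libraries had 0 UMIs. Gja5, an arterial connexin, was at 0 in the fed library, and the lymphatic markers Pdpn and Mmrn1 were at 0 in all 5 libraries. Prox1, a lymphatic factor that hepatocytes also express, was at 93.7, 47.1, 0, 71.0 and 91.9 CPM, against 240.5, 195.7, 197.0, 300.1 and 239.6 CPM in hepatocytes. Ly6a made up most of the sum at 8 h, at 629 CPM against 121 CPM in the fed library.

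**Figure D2:**
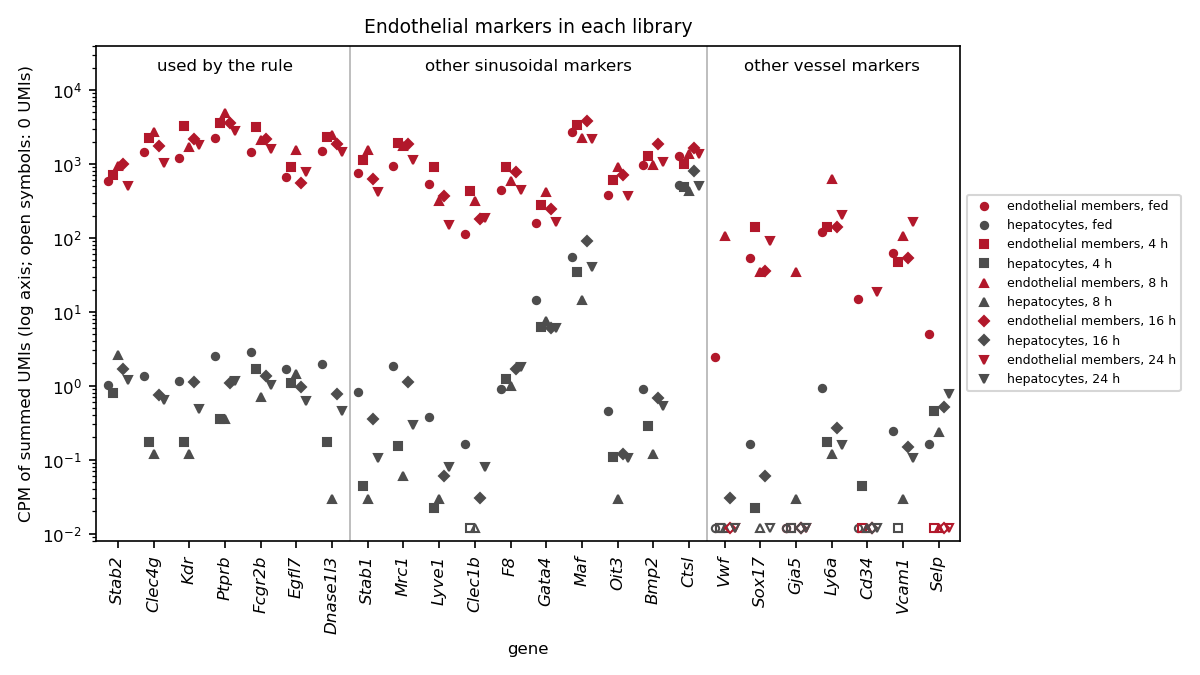
Level in CPM (log axis) of each endothelial marker gene in the endothelial barcodes (red) and hepatocytes (grey) of the 5 libraries, for the rule genes, other sinusoidal markers and markers of other vessels; open symbols mark 0 UMIs. The rule and most sinusoidal markers sit orders of magnitude above the hepatocytes in each library, Ctsl does not, and several other-vessel markers are open.

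Markers of neighbouring cell types were found in some of these barcodes. The stellate cell list (Lrat, Dcn, Reln, Colec11, Ecm1, Des, Rgs5, Col3a1 and Col1a1) had 8 of 9 genes detected in the fed library, with Col1a1 at 0, and summed to 490, 330, 1257, 1064 and 1471 CPM, against 1.36 to 19.4 CPM in hepatocytes. At least 3 stellate UMIs were found in 16, 1, 6, 6 and 6 endothelial barcodes, and 0 stellate UMIs in 171 of 221, 2 of 6, 7 of 16, 35 of 47 and 9 of 17. The Kupffer cell list had 10 of 10 genes detected in the fed library and summed to 318, 0, 34.9, 160 and 0 CPM, with at least 3 UMIs in 5, 0, 0, 1 and 0 barcodes. Cholangiocyte (14.8 CPM, Sox9 only), T and NK cell (14.8), platelet (12.3) and neutrophil (4.93) lists were near 0 in the fed library, and the B cell list was at 0 there.

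Hepatocyte RNA was present in all of these barcodes, and its amount differed between libraries. The 26 hepatocyte transcripts (secreted plasma proteins and metabolic enzymes) made up a median of 5.21%, 2.08%, 0.752%, 4.01% and 4.01% of UMIs per endothelial barcode in time order, against 17.1%, 13.4%, 16.0%, 17.2% and 15.3% per hepatocyte. Taken as sums over nuclear UMIs, the endothelial level was 28.7% of the hepatocyte level in the fed library (28.3 to 29.1). The 4 h level was 16.4% (15.2 to 17.8) and the 8 h level 6.19% (5.52 to 6.92). Later libraries had 20.9% (16 h, 20.0 to 21.7) and 22.3% (24 h, 21.5 to 23.3). The 8 h barcodes therefore carried the least, with an interval below those of the others, and the fed barcodes the most.

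Transcript by transcript, the hepatocyte RNA in fed endothelial barcodes did not have the composition of fed hepatocytes. Relative to hepatocytes, single transcripts ran from 8.98% for the fibrinogen chain gene Fga to 170% for Fabp1, the liver fatty acid binding protein gene, with a standard deviation of 1.23 in log2 over the 26. Relative to the low-mitochondrial barcodes the standard deviation of the same transcripts was 0.274, and Fabp1 was the lowest at 36.0%. In the other libraries this spread was 1.13 to 1.39 against hepatocytes and 0.414 to 0.993 against low-mitochondrial barcodes. Albumin showed the ordering in full: Alb was at 10340 CPM in fed endothelial barcodes, 77110 CPM in hepatocytes and 19850 CPM in low-mitochondrial barcodes. Fabp1 was instead highest in low-mitochondrial barcodes, at 27300 CPM, and higher in endothelial barcodes (9825 CPM) than in hepatocytes (5794 CPM). At least 1 Alb UMI was found in 100% of fed endothelial barcodes and 100% of hepatocytes, at median nuclear depths of 1718 and 4836 UMIs.

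**Figure D3:**
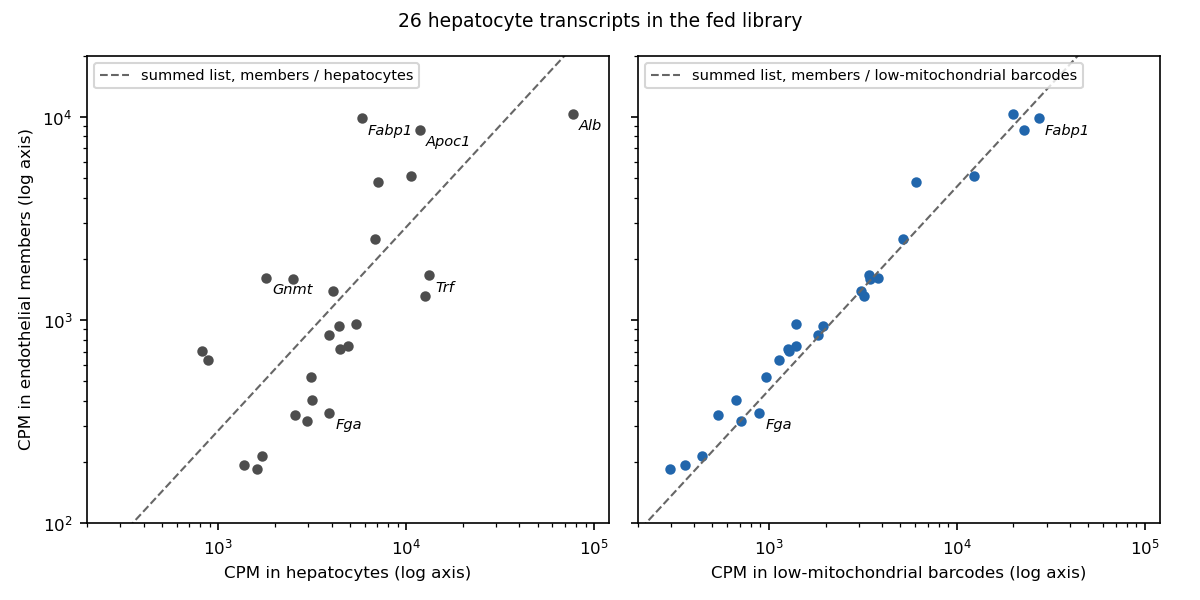
Each point is 1 of 26 hepatocyte transcripts in the fed library, with its level in endothelial barcodes on the vertical axis and its level in hepatocytes (left) or low-mitochondrial barcodes (right) on the horizontal axis, both in CPM on log axes; the dashed line is the ratio of the summed list. Points scatter widely around the line on the left (SD 1.23 in log2) and closely on the right (0.274).

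For this reason a free-RNA level is used beside the time comparisons: the level a gene would have if it reached endothelial barcodes only with RNA of the low-mitochondrial composition, at the amount set by the 26 transcripts (45.3%, 25.1%, 7.27%, 27.4% and 36.0% of the low-mitochondrial level in time order). What the low-mitochondrial barcodes hold was not tested. For Mrc1, Stab1, Lyve1, Bmp2, Igfbp7, Fabp4, Gpihbp1, Klf2 and Cyp26b1 the free-RNA level did not exceed 3.20 CPM in any library (Gpihbp1, 16 h), and for Cd36 it did not exceed 12.0 CPM (fed).

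Against the hepatocytes of the fed library, 4276 genes had at least 50 CPM in either class and enough UMIs to be expected at 20 or more at endothelial depth. Of these 1549 (36.2%) were at least 2-fold higher in endothelial barcodes and 670 (15.7%) at least 2-fold lower, with a median log2 ratio of 0.58. With TMM scaling every log2 ratio was 0.78 lower, and the split became 871 higher and 1272 lower. Relative to both hepatocytes and low-mitochondrial barcodes, 1289 (30.1%) were at least 2-fold higher. The smaller endothelial sums of the other libraries left fewer genes. At 4 h 51 of 222 (23.0%) were higher and 92 (41.4%) lower, and at 8 h 121 of 335 (36.1%) and 131 (39.1%). The 16 h library gave 175 of 617 (28.4%) and 189 (30.6%), and the 24 h library 129 of 548 (23.5%) and 174 (31.8%). The list counts that follow are for the fed library, list members short of the UMI minimum are left out of them, and a gene that is low in hepatocytes can be counted only through the endothelial side.

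Scavenger receptors and lectins were among the highest ratios: 6 of the 7 listed had enough UMIs, and all 6 were at least 2-fold higher, with a median log2 ratio of 9.23. Stab1, the second stabilin, was at 764 CPM in fed endothelial barcodes against 0.830 in hepatocytes, a log2 ratio of 9.85 (9.31 to 10.43). Mrc1, the mannose receptor, followed at 927 CPM (log2 ratio 8.99), and Lyve1, a hyaluronan receptor, at 537 CPM (10.48). Clec1b, a lectin receptor, was at 113 CPM (9.46), and Cd36, a fatty acid and scavenger receptor that hepatocytes also had at 30.8 CPM, at 589 CPM (4.26). Scarb1, the HDL receptor, had 13 UMIs, too few to count.

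Receptors of the VEGF and angiopoietin family were higher in 6 of the 6 with enough UMIs, of 8 listed, with a median of 8.52. Flt4, a receptor for VEGF-C, stood at 604 CPM (log2 ratio 9.71) and Flt1, which binds VEGF-A, at 471 CPM (9.78). The co-receptors Nrp1 and Nrp2 were at 535 CPM (3.93) and 333 CPM (6.27), and the angiopoietin axis receptors Tek and Tie1 at 182 and 195 CPM. The ligands Angpt2 and Pgf had 0 UMIs in the fed barcodes.

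Genes of BMP and TGF-beta signalling were higher in 9 of 9, of 10 listed, with a median of 5.07. Of the ligands, Bmp2, which induces hepcidin in hepatocytes together with Bmp6, was at 961 CPM with a log2 ratio of 10.04 (9.54 to 10.59), and Bmp6 was at 136 CPM (8.40). The co-receptor Eng was at 638 CPM (9.26), the type II receptor Bmpr2 at 542 CPM (3.68) and the target Id3 at 562 CPM (3.21). The receptor Bmpr2 and the target Id3, which were also found in hepatocytes, had smaller ratios than the ligands.

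Other signals to neighbouring cells were mixed in level. Of 9 angiocrine genes listed, 6 had enough UMIs, 5 were higher and 1 lower. Igfbp7, a secreted insulin-like growth factor binding protein gene, was at 1033 CPM (8.59), and Hgf, a hepatocyte mitogen, at 138 CPM (6.87). Wnt2, the pericentral Wnt ligand, was at 121 CPM. The exception was the chemokine gene Cxcl12, at 128 CPM in endothelial barcodes and 288 CPM in hepatocytes, a log2 ratio of -1.17 (-1.59 to -0.77). In the Notch pathway, 3 of 8 listed genes had enough UMIs and all 3 were higher: the receptor Notch1 at 306 CPM (5.35), the ligand Dll4 at 96.1 CPM (10.81) and the target Hes1 at 210 CPM (2.65).

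All 14 transcription factor genes with enough UMIs, of 15 listed, were at least 2-fold higher, with a median of 8.14. Those with the most UMIs after Maf were Nr2f2, the venous identity factor COUP-TFII, at 636 CPM (3.52), the ETS factor Ets1 at 486 CPM (8.42) and Meis2 at 463 CPM (7.76). Sox18 stood at 303 CPM, and Klf2, a factor induced by blood flow, at 281 CPM (8.15). The junction and caveola list had 8 of 8 higher, of 9 listed, with a median of 9.13, among them VE-cadherin (Cdh5) at 609 CPM (9.43), Pecam1 at 367 CPM (9.10) and the tight junction gene Cldn5 at 357 CPM.

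Of 11 genes for coagulation and vessel tone, 4 had enough UMIs and all 4 were higher, with a median of 8.95. They were F8, the coagulation factor VIII gene, at 439 CPM (8.91), Tfpi, an inhibitor of tissue factor, at 177 CPM (8.99), Nos3, the endothelial nitric oxide synthase gene, at 96.1 CPM (5.64), and Thbd, the thrombomodulin gene, at 91.2 CPM (10.73). Being low in hepatocytes, these 4 could be counted only through the endothelial side. Among members short of UMIs, Procr, the endothelial protein C receptor gene, had 3 UMIs, and Plat, which encodes a plasminogen activator, and Edn1, the endothelin-1 gene, had 0, which allows up to 7.39 CPM.

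Lipid handling genes split by role. Of 12 listed, 7 had enough UMIs, of which 5 were higher and 2 lower. Gpihbp1, which anchors lipoprotein lipase to the capillary wall, was at 786 CPM (10.14), and the fatty acid binding protein genes Fabp4 and Fabp5 were at 182 CPM (9.03) and 160 CPM (3.04). One of the lower genes was Abca1, which acts in cholesterol efflux, at 123 CPM against 405 CPM in hepatocytes (-1.72). Both classes thus had lipid genes, but different ones led in each.

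Antigen presentation genes were closer to hepatocytes, with 4 of the 6 counted genes higher and none lower, and a median of 2.12. B2m, the invariant chain of class I molecules, differed little (2415 against 2484 CPM, log2 ratio -0.041, interval -0.13 to 0.050). H2-D1 was at 1018 CPM (1.36), which fell under 2-fold with TMM scaling, and H2-K1 at 1870 CPM (-0.18), but reads of these related class I genes may be split between family members. The class II chaperone gene Cd74 was at 69.0 CPM, from 28 UMIs in 6 of 221 barcodes.

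Of the 17 hormone and nutrient responsive genes listed, 11 had enough UMIs, of which 9 were at least 2-fold higher and none lower (6 of 11 higher with TMM scaling). Of all 4276 genes counted, 36.2% were higher and 15.7% lower (871 and 1272 genes with TMM scaling). Txnip, an arrestin family gene induced by glucose, stood at 961 CPM (2.83) and Sgk1, a glucocorticoid-induced kinase gene, at 599 CPM (5.95). Of the insulin family receptors, Igf1r was at 104 CPM (8.46) and Insr at 276 CPM (1.06). Clock genes gave 2 higher and 3 lower of 8 counted (1 and 4 with TMM scaling), with Nr1d1 at 136 CPM (3.36) the highest ratio. Among immediate early genes, which dissociation can induce, 3 of 8 were higher and none lower (3 and 2 with TMM scaling), with a median of 0.40. Without TMM scaling the higher share is near that of all genes. Dusp1 was at 269 CPM (0.25). All 5 acute phase genes counted were lower, with a median of -2.48, as were 19 of the 26 hepatocyte transcripts, with a median of -2.53.

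**Figure D4:**
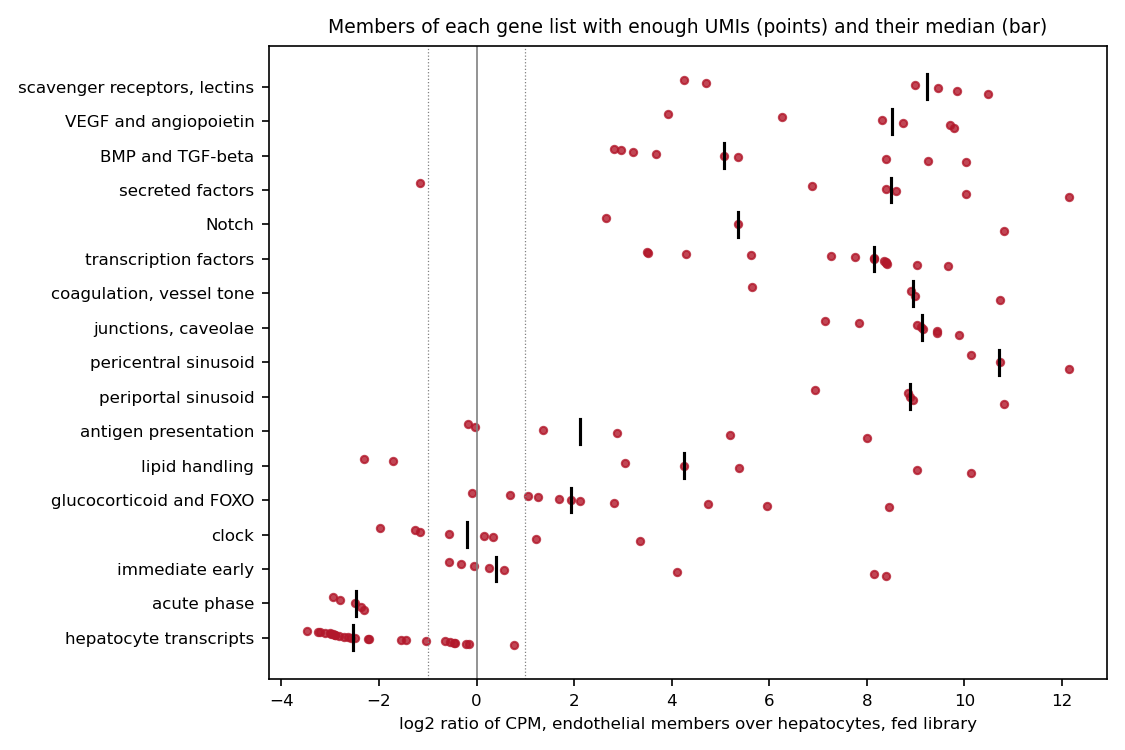
Log2 ratio of fed endothelial barcodes over fed hepatocytes, by gene list; each point is 1 gene with enough UMIs, bars are list medians, and dotted lines mark 2-fold either way. Receptor, transcription factor and junction lists lie far above 1, clock and immediate early lists straddle 0, the acute phase list lies below it, and the hepatocyte list does so except for Fabp1.

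Outside the rule, the 20 highest ratios in the fed library belonged to genes almost absent from hepatocytes. Genes with 0 hepatocyte UMIs were ranked at their bound against a floor of 3 UMIs, and so below genes with the same endothelial count and 1 or 2 hepatocyte UMIs. Clec1a, a C-type lectin gene, had 53 endothelial UMIs and 0 in 7615 hepatocytes, so it was at least 1625-fold higher against that floor. Wnt2 had 49 UMIs against 1, a log2 ratio of 12.14 with an interval of 9.59 to 17.47. Fgd5, a Cdc42 exchange factor gene of endothelium, had 47 against 1 (12.08).

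With so few hepatocyte UMIs most of these ratios are known only within wide limits. Dll4 had 39 against 2 (10.81, interval 8.86 to 13.90), and Lyve1, with 218 against 14, had 10.48 (9.71 to 11.38). The roundabout receptor gene Robo4 had 68 against 5 (10.29, 9.00 to 11.96), and Plxnc1, a semaphorin receptor gene, had 251 against 19 (10.25, 9.57 to 11.00). The others were Zfp503, Tbxa2r, Nhsl2, Gnb4, Hlx, Tspan2, Dpysl3, Thbd, Mecom, C5ar2, Myzap, Rapgef3 and Ptgs1. Tbxa2r and Ptgs1, the thromboxane receptor and cyclooxygenase-1 genes, and C5ar2, a complement C5a receptor gene, are receptors and enzymes of vascular and inflammatory mediators.

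Along the sinusoid, endothelial cells near the central vein are known for Wnt2, Kit and Thbd, and those near the portal tract for Efnb2, Dll4, Ltbp4, Msr1 and Ntn4. Of the 221 fed barcodes, 39 had Wnt2, 65 Kit, 34 Thbd, 143 Ltbp4, 65 Ntn4, 48 Msr1, 40 Efnb2 and 36 Dll4. Their presence in the same barcodes is given as shares, without a test. Of the 39 with Wnt2, Kit was found in 38.5% against 27.5% of the rest, and Thbd in 28.2% against 12.6%.

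For the portal genes the shares beside Wnt2 were below those in the rest, but other pairs went the other way. Dll4 was detected in 1 of the 39 (2.56%) against 19.2% of the rest, Msr1 in 10.3% against 24.2%, Ntn4 in 17.9% against 31.9%, and Efnb2 in 10.3% against 19.8%. Of the 65 barcodes with Ntn4, 30.8% had Efnb2 against 12.8% of the rest, and 33.8% had Msr1 against 16.7%. Of the 34 with the pericentral gene Thbd, 38.2% had Ntn4 against 27.8% of the rest and 29.4% had Msr1 against 20.3%. Dll4 was found in 20.0% of the barcodes with Kit against 14.7% of the rest, and Ntn4 in 9 of the 36 with Dll4 against 30.3% of the rest. The shares therefore did not sort all of these genes by side. The median UMI count was nearly equal with Wnt2 (1757) and without it (1758). Each gene has few UMIs per barcode here. Wnt2 itself had a UMI in 17.6% of fed endothelial barcodes (median 1718 nuclear UMIs) and 0.0131% of hepatocytes (median 4836), or 8.02% and 0.00209% with each barcode thinned to 700 UMIs.

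By library, the pericentral Wnt2 was at 121, 0, 105, 88.7 and 55.1 CPM, where the 0 at 4 h allows up to 141 CPM, and Kit at 212, 0, 210, 355 and 129 CPM. On the portal side, Ntn4 was at 239, 330, 733, 479 and 294 CPM and Dll4 at 96.1, 141, 489, 106 and 184 CPM. The 4 h library, with 6 endothelial barcodes, had no UMI of either Wnt2 or Kit but had Thbd, at 141 CPM, and all 5 portal genes. Its barcodes are too few to tell whether the mix of positions differed.

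To compare times, the fed library was the common reference for all 4 later ones, so the 4 comparisons share it. They were read over endothelial-enriched genes, whose mean level was at least 2-fold that of hepatocytes. At 4 h, 9 of 38 such genes (23.7%) were at least 2-fold higher than fed and 0 (0.00%) lower, with a median log2 ratio of 0.62. At 8 h, 40 of 93 (43.0%) were higher and 2 (2.15%) lower, with a median of 0.88. At 16 h, 8 of 182 (4.40%) were higher and 5 (2.75%) lower, with a median of 0.13, and at 24 h, 7 of 145 (4.83%) and 3 (2.07%), with a median of 0.10. The splits include rule genes, on which the cells were selected: 5 at 4 h and 7 at each later time. Of these, 2 were at least 2-fold higher at 4 h, 2 at 8 h, and 0 at 16 and 24 h. All of these splits also depended on the scaling and on hepatocyte RNA. TMM scaling shifted every ratio by -0.59, -0.65, -0.22 and -0.23 in time order, which left 0 higher and 0 lower genes at 4 h (median 0.032), 7 and 4 at 8 h (median 0.23) and 3 and 6 at both 16 and 24 h. The 4 and 8 h libraries had the lowest hepatocyte RNA levels (16.4% and 6.19% of the hepatocyte level, against 28.7% in the fed library). With the hepatocyte profile subtracted, 6 genes were higher and 0 lower at 4 h, 18 and 3 at 8 h, 5 and 11 at 16 h, and 3 and 6 at 24 h. With the low-mitochondrial profile subtracted the splits were 1 and 2, 13 and 10, 3 and 7, and 3 and 8, with medians of 0.18, 0.15, -0.096 and -0.12. At 24 h a marker share of 0.25% in place of 0.5% gave 3 higher and 10 lower among 26 barcodes.

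Genes furthest above fed at 16 h included Klf3, a Kruppel-like repressor gene, at 550 against 214 CPM, a log2 ratio of 1.36 (0.72 to 1.97), and Plpp1, a lipid phosphate phosphatase gene, at 851 against 340 CPM, 1.32 (0.82 to 1.81). Their free-RNA levels were 2.77% and 0% of the endothelial level. Also higher were Lars2 (8071 against 3413 CPM) and Gm42418 (100200 against 44240 CPM), genes whose counts in mouse libraries are known to gather ribosomal RNA reads.

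The genes furthest below fed at 16 h were Nme2 (319 against 766 CPM, -1.26), Rpl35 (461 against 1008, -1.13), Txn1 (266 against 579, -1.12), Cyp26b1 (585 against 1272, -1.12) and Sem1 (284 against 596, -1.07). The free-RNA level was 102% of the endothelial level for Nme2, 109% for Txn1, 63.2% for Rpl35 and 56.4% for Sem1 at 16 h. In the fed library these shares were similar, at 106.5%, 86.6%, 62.5% and 64.9%. The part of free RNA in these differences was not tested. Cyp26b1 was the exception, with a free-RNA level of 0% at 16 h.

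Cyp26b1, which encodes an enzyme that degrades retinoic acid, lies at chr6:84571414-84593908 on the minus strand. Its level was 1272, 330, 34.9, 585 and 1011 CPM in time order, from 516, 7, 1, 33 and 55 UMIs, and it was found in 159 of 221 fed barcodes. Hepatocytes had 2.01, 0, 0.0296, 0.359 and 0.774 CPM. The 8 h level was the lowest, the 16 h level lay between it and fed, and the 24 h level was the nearest to fed. The 16 h ratio had an interval of -1.67 to -0.61.

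At 24 h, at the same clock hour as fed, Ece1, which encodes the enzyme that activates endothelin, was at 570 against 195 CPM, a log2 ratio of 1.55 (0.90 to 2.17). Klf2 was at 680 against 281 CPM, 1.28 (0.70 to 1.82). Sash1, a scaffold protein gene, was at 588 against 266 CPM (1.14). For these genes the free-RNA level at 24 h was low, at 1.85% of the endothelial level for Ece1 and 0.0275% for Klf2. Without the barcodes that had 3 or more stellate or Kupffer UMIs, 6 of them at 24 h, the log2 ratio of Klf2 was 0.55, under 2-fold. The 10 genes counted in either direction became 3, but only 74 genes in place of 145 then had enough UMIs. Ratios of Ece1, Pfdn5, Fkbp1a and Actb were past 2-fold in all 17 alternative settings, this one included. Those of Actg1, Klf2, Sash1 and AY036118 were so in 16, 15, 13 and 11. Pfdn5 (643 against 274 CPM, 1.23) and AY036118 (2316 against 1079 CPM, 1.10) were also higher, with free-RNA levels of 30.5% and 59.2% and with hepatocyte log2 changes of 1.38 and 3.05 in the same direction.

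The 3 genes lower at 24 h were Actg1 (257 against 774 CPM, -1.59), Fkbp1a (294 against 722 CPM, -1.30) and Actb (1287 against 2886 CPM, -1.17). Actb and Actg1 encode the cytoplasmic actins and Fkbp1a a small immunophilin. In the hepatocytes of the same libraries these genes were lower as well, by log2 changes of -2.30 for Actg1, -1.09 for Fkbp1a and -1.75 for Actb. Their free-RNA levels at 24 h were 10.8%, 3.94% and 8.68% of the endothelial level. The actin differences were therefore found in both cell classes of these 2 libraries.

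Klf2, at chr8:72319033-72321656 on the plus strand, was at 281, 659, 943, 195 and 680 CPM. The 16 h library was the lowest and the 8 h library the highest, with 1.55 CPM or less in hepatocytes throughout. Klf2 is also 1 of the 18 immediate early genes that dissociation can induce. That list summed to 1156, 1177, 2200, 1437 and 1709 CPM with Klf2 included, so the sums partly repeat its own levels. The part of dissociation in the Klf2 levels was not tested.

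Among the scavenger receptors, Mrc1 was at 927, 1931, 1746, 1863 and 1121 CPM, with a 16 h log2 ratio of 1.01 (0.68 to 1.32), while Stab1 was at 764, 1130, 1537, 621 and 423 CPM, with a 24 h ratio of -0.85 (-1.53 to -0.24). Lyve1 had 537, 895, 314, 373 and 147 CPM, with a 24 h ratio of -1.87 (-3.10 to -0.87) from too few UMIs to be counted. Mrc1 and Lyve1 were highest at 4 h, from 6 barcodes, and Stab1 at 8 h. The 4 h log2 ratio was 1.06 (0.56 to 1.53) for Mrc1, close to its 16 h ratio, and 0.74 (-0.024 to 1.41) for Lyve1. TMM scaling shifts 4 h ratios by -0.59 and 16 h ratios by -0.22, which makes Mrc1 highest at 16 h. Of the sinusoidal marker list, 1 of 8 was at least 2-fold higher at 16 h (Mrc1), where 4.40% of all genes counted were. Mrc1 lay at the 2-fold limit and stayed past it in 7 of 17 alternative settings, with 0.78 under TMM scaling and 0.60 once RNA of the low-mitochondrial composition was subtracted. At 24 h, 0 of 7 were past 2-fold in either direction, with a median of 0.0082.

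The secreted products Bmp2 and Igfbp7 were highest at 16 h. Bmp2, at chr2:133552159-133562885 on the plus strand, was at 961, 1272, 978, 1845 and 1066 CPM, with a 16 h log2 ratio of 0.94 (0.61 to 1.26), just under 2-fold. Igfbp7 was at 1033, 1460, 1676, 1969 and 1066 CPM (0.93). In both, the fed and 24 h libraries were close together.

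The 16 barcodes of the 8 h library were compared with fed in 12 lipid handling genes, of which 3 had enough UMIs. All 3 were at least 2-fold higher, with a median of 1.44. At their fed levels Fabp4 and Cd36 would have been short of the UMI minimum at the 8 h depth. They were counted through the 8 h library, so this count is partly set by the filter. Of all 93 genes counted at 8 h, 43.0% were at least 2-fold higher, with a median of 0.88 (7 of 93 with TMM scaling). Fabp4, at chr3:10204088-10208576 on the minus strand, was at 182, 236, 1956, 142 and 349 CPM, and its 8 h ratio was 3.42 (2.90 to 3.94). It came from 56 UMIs in 13 of the 16 barcodes, and the level was 1647 CPM without the barcode that had the most. Gpihbp1 was at 786, 942, 2130, 905 and 882 CPM (8 h ratio 1.44, 61 UMIs in 14 of 16 barcodes), and Cd36 at 589, 424, 1187, 887 and 625 CPM (1.01). With TMM scaling Fabp4 remained past 2-fold at 2.77, while Gpihbp1 and Cd36 were at 0.79 and 0.36. The same library had the highest summed other-vessel markers (908 CPM), the least hepatocyte RNA, stellate markers at 1257 CPM against 490 CPM in the fed library and, with the 16 h library, deposited barcodes under 1000 UMIs. Without barcodes that had 3 or more stellate or Kupffer UMIs, the 8 h ratios were 4.01 for Fabp4, 1.82 for Gpihbp1 and 1.67 for Cd36, and the part of the other measures was not tested.

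**Figure D5:**
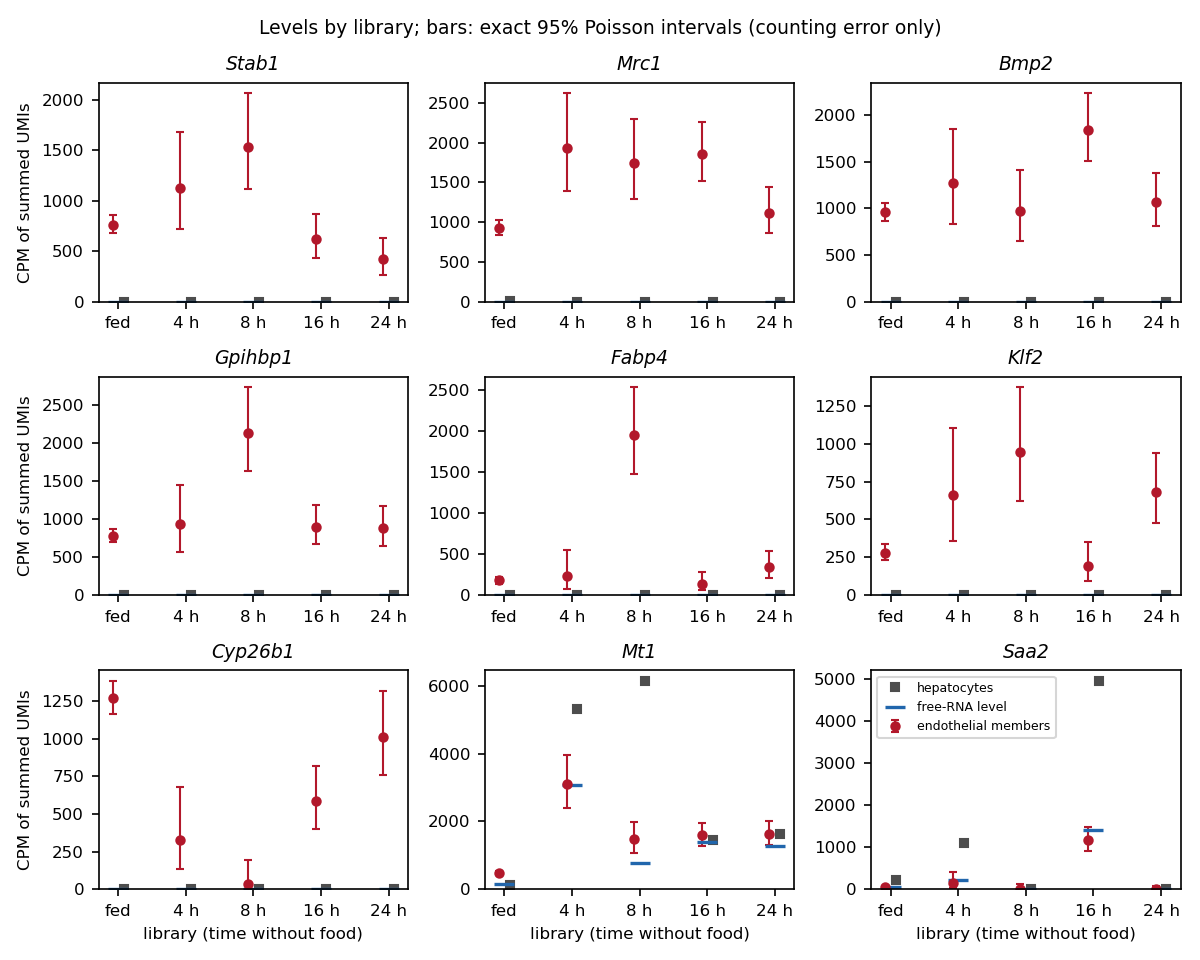
Level in CPM (linear axes) of 9 genes in endothelial barcodes (circles, exact Poisson 95% bars) and hepatocytes (squares) by hours without food; blue dashes mark the free-RNA level. Fabp4 peaks at 8 h at 1956 CPM, Cyp26b1 is lowest there at 34.9 CPM, and Mt1 and Saa2 lie near their free-RNA level at 16 h, unlike Bmp2 and Stab1.

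Metallothionein and acute phase transcripts were also abundant in the hepatocytes of the same libraries. Mt1, at chr8:94179082-94180327 on the plus strand, encodes a metal-binding protein induced by glucocorticoids and zinc. It was at 468, 3108, 1467, 1596 and 1636 CPM in endothelial barcodes and at 108, 5310, 6152, 1452 and 1640 CPM in hepatocytes. The free-RNA level of Mt1 was 157, 3072, 768, 1381 and 1267 CPM, below the endothelial level in each library but nearly equal to it at 4 h. Mt2 followed, at 101, 754, 454, 373 and 313 CPM. Once RNA of the low-mitochondrial composition was subtracted, the 16 h over fed log2 ratio went from 1.77 to -0.94 for Mt1 and from 1.88 to -0.098 for Mt2.

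The serum amyloid gene Saa2 was at 44.4, 141, 0, 1171 and 0 CPM in endothelial barcodes and at 219, 1086, 12.8, 4956 and 9.68 CPM in hepatocytes, and Saa1 at 69.0, 188, 0, 656 and 18.4 CPM against 386, 1148, 37.9, 4890 and 21.1 CPM. The zeros of Saa2 at 8 and 24 h allow up to 105 and 55.1 CPM. At 16 h the free-RNA level of Saa2 was 1407 CPM, above the measured 1171 CPM. The part of hepatocyte RNA in these levels was not tested.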

How the data were processed

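Single-cell RNA was measured in 5 libraries of isolated mouse hepatocytes. The authors deposited 1 matrix of raw UMI counts (32285 genes, 50000 barcodes), written by Cell Ranger 6.0.1 with mm10, per the file headers and the submitters' processing notes. Other filters are not given in the sources used here. Barcodes were assigned to libraries through the deposited barcode table, with 0 columns of per-sample values unused. Cell classes were rebuilt by the stated rules, and UMIs were summed per class and library and scaled to nuclear-encoded UMIs. With 1 library per time point no test was made; 95% intervals are exact (Poisson, conditional binomial, Clopper-Pearson). A gene counted as higher or lower at 2-fold or more, with at least 50 CPM and 20 expected UMIs. Named genes were the rule markers, the fixed lists, the 20 highest fed ratios, and up to 5 genes per direction at 16 and 24 h. Members and lists were chosen with earlier results of these data known. The script was tested on simulated counts. Doublets were not called. Some genes that the naming rule selects are not reported here. Alternatives were other marker, mitochondrial and expression limits, other scalings and subtraction of hepatocyte RNA. Python 3.11.15 was used with scipy 1.17.1, numpy 2.4.6, matplotlib 3.10.9 and pandas 2.3.3.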

Additional observations from a re-analysis of the deposited data

Results flagged for a closer look

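Rpl35, a ribosomal protein gene, differed between fed and 16 h in opposite directions in the 2 cell classes. In endothelial barcodes it was at 1008 CPM fed and 461 CPM at 16 h (log2 ratio -1.13, interval -1.76 to -0.56), and in hepatocytes at 246 and 356 CPM (0.54), a difference of -1.66 between the log2 ratios. With 1 library per time point the difference was not tested, and the free-RNA level was 63.2% of the endothelial level at 16 h and 62.5% in the fed library.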

How the results depend on the processing

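The counts and the named-gene ratios at 16 and 24 h, the 20 highest fed ratios and 4 genes at 8 h were recomputed under 17 settings, of which 2 were chosen after seeing the data; Nme2 and Txn1 at 16 h and Cyp26b1 at 8 h gave a value under 16. The hepatocyte RNA level was not recomputed under settings that do not apply to it (the scalings, the lower minimum, hepatocyte profile subtraction, removal of ribosomal RNA-like genes), and of other 4 and 8 h results only the splits over endothelial-enriched genes were recomputed, a check added after seeing the data (medians 0.032 to 0.80 at 4 h and 0.15 to 0.94 at 8 h). No paired analysis was possible because each time point was 1 library. The fed counts of 1549 higher and 670 lower genes became 447 and 352 with a 1% marker share, 333 and 277 in barcodes with little hepatocyte RNA, 871 and 1272 with TMM, 878 and 1257 with median-of-ratios scaling, and 3544 and 1094 with a minimum of 10 CPM and 5 UMIs. The hepatocyte RNA level (28.7%) was 29.6% with a 0.25% marker share, 25.2% with 1%, 29.3% with at most 15% mitochondrial UMIs, 18.9% in barcodes with little hepatocyte RNA, 29.7% without the mitochondrial minimum of hepatocytes, 31.9% over all UMIs, 45.3% with low-mitochondrial barcodes as the source and 28.3% as a mean per barcode. The 13 genes counted at 16 h became 8 in barcodes with little hepatocyte RNA and 136 with the lower minimum. The 10 at 24 h became 6 without the mitochondrial minimum of hepatocytes, 138 with the lower minimum and 3 without barcodes that had 3 or more stellate or Kupffer UMIs. Some of these follow from fewer barcodes or more genes counted, and otherwise the cause was not tested. The 16 h changes of Mt1 and Mt2 turned to -0.94 and -0.098 once RNA of the low-mitochondrial composition was subtracted. Of single-gene values, 1248 moved by less than their counting interval, 56 moved by more and 2, Mt1 and Mt2, went from past 2-fold to the opposite sign. Some ratios under 2-fold, such as those of Klf9 and Igfbp7 at 24 h and Actb at 16 h, also changed sign. Cyp26b1 stayed at least 2-fold lower at 16 h in all 17 settings (-1.78 to -1.02). Klf2 at 24 h ranged from 0.55 to 1.82, Sash1 at 24 h from 0.61 to 1.78, AY036118 at 24 h from 0.20 to 1.20 and Mrc1 at 16 h from 0.60 to 1.10. Depth limits the 4 h values most, with 21234 UMIs in 6 barcodes.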

Other observations

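Plxnc1, the receptor gene with the most UMIs among the 20 highest fed ratios, was at 619, 1036, 733, 710 and 901 CPM in time order. Icam1, an adhesion gene induced by inflammation, was at 69.0, 47.1, 0, 53.2 and 55.1 CPM in the same barcodes. The core clock gene Per1 had 2 UMIs in the fed endothelial barcodes (4.93 CPM) and was at 94.2, 175, 17.7 and 18.4 CPM at 4, 8, 16 and 24 h, against 9.48, 18.4, 28.3, 11.9 and 27.1 CPM in hepatocytes in time order. Fkbp5, a glucocorticoid-induced gene, was at 51.8, 94.2, 384, 17.7 and 36.8 CPM, against 21.7, 134, 288, 37.7 and 122 CPM in hepatocytes. For Icam1, Per1 and Fkbp5 the later endothelial levels rest on few UMIs, since those sums held only 21234, 28633, 56375 and 54403 UMIs. Differences between libraries in these genes are therefore not interpreted, and the 0 of Icam1 at 8 h does not show absence.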
